A study of Mus musculus with 33 samples.

Results

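Sleep deprivation was set against control sleep in the frontal cortex of adult male mice of 2 genotypes, and the quantity described here is how far the response to sleep loss differed between them. For each gene the log2 difference between sleep deprived (SD) and control sleep (CS) libraries of wild-type (WT) mice was subtracted from the same difference in floxed mice. A positive value, called an interaction below, therefore means that the floxed response was the more positive of the pair, whether by a larger rise, a smaller decline or a turn in direction. Read counts had been scaled to a common library total (CPM). A gene entered if it reached 1 CPM in each replicate of some group and was above 0 in every one of the 20 libraries used, which left 12519 of the 21565 genes in the table.

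WT mice were C57BL/6J. Floxed mice (Mef2c f/f) carried loxP sites on either side of the second coding exon of Mef2c, had been backcrossed to C57BL/6J and carried no Cre, since they served the study as controls for a conditional knockout. CS mice slept ad libitum, SD mice were kept awake for 6 h on a slowly moving treadmill, and all mice were sampled at the same circadian time, so that age class, sex and time of day were shared by all 4 groups. The backcross may have left other differences in background between the genotypes, which cannot be told apart from the floxed allele. The labels gave no litter, extraction or sequencing batch. The groups held 6 WT CS, 7 WT SD, 4 floxed CS and 3 floxed SD libraries, out of 33 libraries in the series, and nothing in the labels says more about replicates than that they are separate samples, so the p-values measure the spread between these samples.

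Sleep loss is known to raise activity-induced transcription factors, the chaperones of the endoplasmic reticulum (ER) and targets of the glucocorticoid receptor in rodent cortex, while transcripts of many synaptic genes move during the same hours. MEF2C is an activity-regulated transcription factor of cortical neurons that represses or activates synaptic genes according to its phosphorylation. Immediate early genes such as Egr2 are driven through serum response factor at CArG boxes, and ER chaperone genes through an ER stress response element (ERSE), to which the factors NF-Y and ATF6 bind.

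The promoters of 3 chaperone genes whose responses were alike in both genotypes and of Egr2, whose response differed, are printed to show these elements. Each runs from 250 bases before to 50 bases after a RefSeq transcription start on GRCm38.p6, the assembly on which mm10 is built, and the capitals mark the match. Hspa5 and Pdia6, on the plus strand at chr2:34771840-34772139 and chr12:17266339-17266638, and Calr, on the minus strand at chr8:84846882-84847181, carry the ERSE, in Calr in the reverse orientation. Egr2, on the plus strand at chr10:67537619-67537918, carries a CArG box in this window and in 4 of its 5 windows.
Hspa5: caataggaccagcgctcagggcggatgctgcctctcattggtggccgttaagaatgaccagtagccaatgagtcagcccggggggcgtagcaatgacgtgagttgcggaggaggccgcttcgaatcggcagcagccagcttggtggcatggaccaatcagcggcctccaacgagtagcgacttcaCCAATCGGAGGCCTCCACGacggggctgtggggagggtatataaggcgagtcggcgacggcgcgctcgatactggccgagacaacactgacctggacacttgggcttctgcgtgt
Pdia6: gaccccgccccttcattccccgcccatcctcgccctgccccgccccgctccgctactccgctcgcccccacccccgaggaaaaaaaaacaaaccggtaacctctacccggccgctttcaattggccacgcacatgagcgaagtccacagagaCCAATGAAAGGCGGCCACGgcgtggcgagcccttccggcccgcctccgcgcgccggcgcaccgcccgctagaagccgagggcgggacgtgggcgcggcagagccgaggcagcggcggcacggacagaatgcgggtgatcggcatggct
Calr: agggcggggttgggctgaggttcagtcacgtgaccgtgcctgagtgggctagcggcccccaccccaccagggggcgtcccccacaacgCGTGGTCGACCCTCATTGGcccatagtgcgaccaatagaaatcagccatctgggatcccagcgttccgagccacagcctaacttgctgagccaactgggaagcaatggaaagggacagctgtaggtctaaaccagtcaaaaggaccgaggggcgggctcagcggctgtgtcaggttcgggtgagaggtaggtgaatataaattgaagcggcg
Egr2: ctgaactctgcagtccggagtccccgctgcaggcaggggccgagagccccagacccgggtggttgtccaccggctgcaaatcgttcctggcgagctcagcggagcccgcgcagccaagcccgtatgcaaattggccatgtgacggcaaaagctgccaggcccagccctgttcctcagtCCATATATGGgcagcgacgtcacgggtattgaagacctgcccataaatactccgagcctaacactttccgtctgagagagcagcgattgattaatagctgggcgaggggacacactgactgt

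With the letters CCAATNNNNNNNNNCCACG on either strand, the ERSE was found in 7 of 19 windows of the ER list (36.8%), against 39 of all 32851 RefSeq windows (0.119%). Those 7 genes were Calr, Canx, Creld2, Dnajc3, Hsp90b1, Hspa5 and Pdia6. CArG boxes stood in 5 of 14 windows of the Egr and Nr4a list (35.7%), belonging to Egr2 and Srf, against 535 of all windows (1.63%). By gene this was 2 of 10 with a window. The Egr2 windows that start at 67537619, 67537620 and 67537680 overlap and hold the same CCATATATGG. Windows with a CArG box numbered 0 of 6 in the AP-1 list and 1 of 19 in the ER list. The cAMP response element TGACGTCA, present in 588 of all windows (1.79%), was in none of these lists' windows. A match is a description of the letters only.

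Sequencing depth differed between the genotypes. The recovered totals ran from 44395583 to 218548740 reads in WT CS, 57394212 to 145658838 in WT SD, 18935045 to 40576940 in floxed CS and 35010033 to 52918796 in floxed SD libraries, and 3 reads corresponded to at most 0.158 CPM in any of them. CPM of the listed genes summed to 938651 to 985958 in WT libraries but to exactly 1000000 in every floxed library, and 553 genes with CPM of at least 1 in a group were at 0 in all 7 floxed libraries while above 0 in all 13 WT libraries. Genotype can therefore not be told apart from a difference in processing, which touches comparisons of level between genotypes more than responses within one. WT CS 1, 2 and 3 lay apart from the other libraries on the first principal component, and the correlation across genes of a library's deviation with GC content ranged from −0.742 to −0.035 in WT CS, from 0.147 to 0.752 in WT SD, from −0.361 to 0.443 in floxed CS and from −0.342 to 0.042 in floxed SD. It thus ran with sleep loss in WT mice, where the ranges did not overlap.

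Mef2c itself (chr13:83504034-83667080) did not stay level in WT mice. Its rescaled CPM was 1085, 1345 and 2019 (lowest, median and highest) in WT CS and 682, 817 and 969.9 in WT SD libraries, without overlap. In floxed mice it was 1207, 1098, 1203 and 1080.1 in the 4 CS libraries and 1249.7, 1135 and 1406 in the 3 SD libraries, which overlapped. The transcript fell in WT mice by 0.80 on the log2 scale (limma adjusted p = 9.3e-05), the floxed difference was 0.14 (adjusted p = 0.87) and the interaction was 0.93 (95% interval 0.51 to 1.35, limma adjusted p = 0.018). After correction for GC content and transcript length the interaction was 0.36 (limma adjusted p = 0.096), and it lost the call without floxed SD 1 (0.94, adjusted p = 0.0503) and without floxed SD 3 (0.85, adjusted p = 0.082). A bulk measurement of tissue cannot tell fewer cells of a type apart from less RNA per cell, here and for all genes below.

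Across all genes, 1152 responses were more positive in floxed mice (9.2% of 12519) and 733 more negative (5.86%) at a limma adjusted p of at most 0.05, 1885 in all. Most of these were genes that moved in WT mice. Of the 1152 genes, 1003 were WT DEGs of the opposite sign, that is, they fell in WT mice, beside 21.2% of all genes. Of the 733 genes, 617 rose in WT mice, beside 27.2% of all genes. The WT difference enters the interaction with its sign turned, so these counts are in part fixed by how the interaction is formed. The floxed difference was the larger in size for 125 of the 1152 and 105 of the 733 genes. DEGs (adjusted p at most 0.05 and at least 0.3 in absolute log2 fold change) numbered 3400 higher (27.2%) and 2656 lower (21.2%) after SD in WT mice, and 4 higher (0.032%) and 0 lower (0%) in floxed mice. The split in WT mice depended on the scaling, and on CPM as deposited it was 6143 higher and 753 lower. The factors that rescaled CPM ran from 0.7165 to 0.9114 in WT CS and from 0.9782 to 1.076 in WT SD libraries, without overlap. For the floxed decline 0 genes were called by limma and by edgeR and 16 by DESeq2, while 506 had an unadjusted limma p of at most 0.05. The median standard deviation of log2 values was 0.251 in WT CS, 0.179 in WT SD, 0.164 in floxed CS and 0.0886 in floxed SD. The fit pooled these spreads. Floxed DEGs were 3 higher and 2 lower with floxed libraries alone, and 324 with weights per group, chosen after seeing the data. The paper, with DESeq2 and its own gene filter, reported many more floxed DEGs at these thresholds. The median standard error was 0.117 for the WT and 0.161 for the floxed response, and 0.199 for their difference, so a gene whose response differed by less than about 0.414, the median reach of the 95% interval to either side, was often not resolved.

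**Figure D1:**
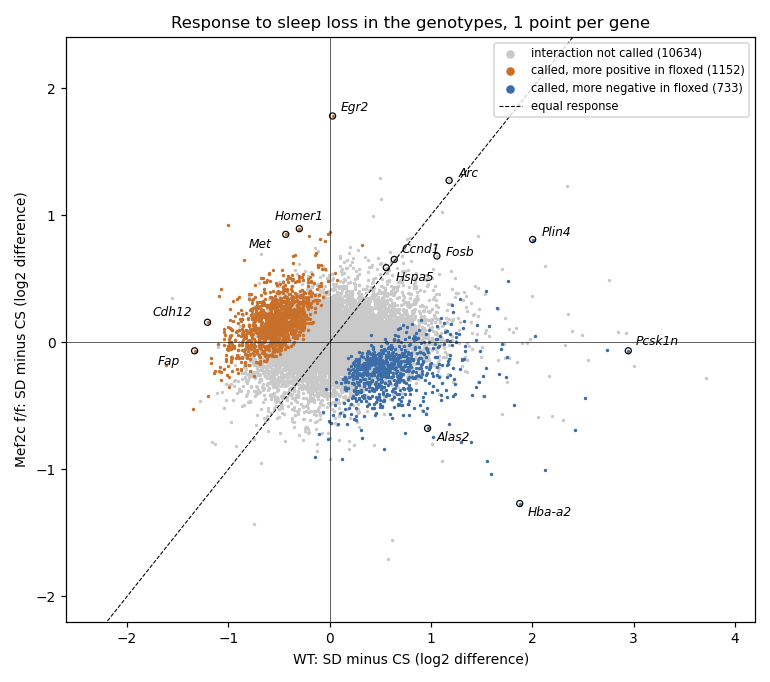
Each point is 1 of 12519 genes, with the WT log2 difference (SD minus CS) on the x axis and the floxed log2 difference on the y axis, and colours mark 1152 genes with a more positive and 733 with a more negative response in floxed mice (limma adjusted p at most 0.05) and 10634 others. The cloud is wider along the WT axis (median absolute difference 0.310) than along the floxed axis (0.126), and Ccnd1, Hspa5 and Arc lie on or near the dashed diagonal where both responses are equal.

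Which libraries entered decided the size of these counts. The interaction count was 11 without floxed SD 3, 82 without floxed SD 1, 166 without floxed CS 4 and 264 without floxed CS 2. It was 825 without WT SD 8, 844 without floxed SD 2, 889 without WT SD 9, 902 without WT CS 3 and 1142 without WT SD 4. It rose to 2832 without WT CS 4, 2957 without WT CS 5 and 3180 without WT CS 6. All 1885 genes kept the sign of the interaction in each of those fits and in the 8 others. Such fits reuse nearly all the libraries in which the genes were called, so a kept sign is not independent support. In the GC-corrected fit, which tested 12498 genes in place of 12519, 1692 of the 1885 had the same sign. Called in all 20 fits with a library left out were 10 genes: Alas2, Cdh12, Hba-a2, Lyz2, Met, Mxra8, Purg, Rxfp2, Stra6 and Vim. Without WT CS 1, 2 and 3 together, 504 interactions were called, 309 more positive and 195 more negative.

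GC content moved with the response. Across genes, Spearman's rho of the log2 difference with GC content was 0.718 in WT mice, −0.300 in floxed mice and −0.758 for the interaction, values that share libraries and in which genes are not independent replicates. In the lowest of 10 bins of GC content the median was −0.418 in WT and 0.140 in floxed mice, and in the highest it was 0.564 and −0.0615. After correction of each library for GC content and transcript length, 105 interactions were more positive (0.84% of 12498 genes) and 93 more negative (0.744%), of which 87 and 65 were also called before it. Spearman's rho of the WT with the floxed response across genes was −0.0593 before and 0.221 after the correction. The GC-corrected value is therefore given beside the groups described in detail below, and the part of GC content in the differences was not tested.

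**Figure D2:**
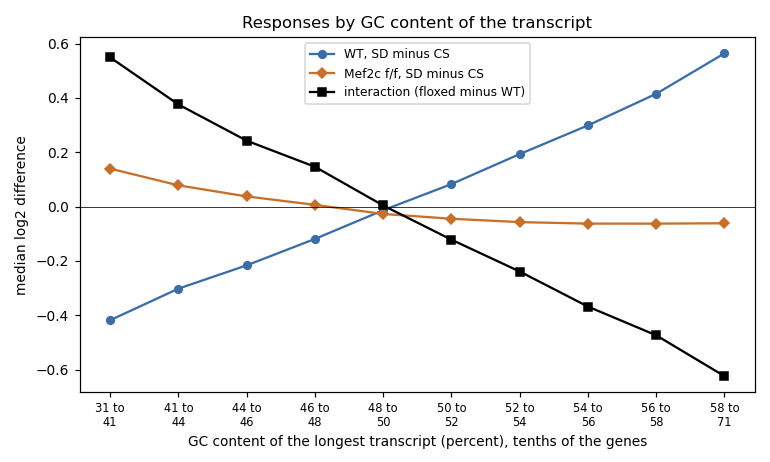
Median log2 difference (SD minus CS) of genes in 10 bins of transcript GC content, for WT mice, floxed mice and the interaction. The WT line climbs from −0.418 to 0.564 while the floxed line runs from 0.140 to −0.0615, and the interaction falls from 0.549 to −0.624.

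Responses were compared gene by gene by the interval of the interaction and by the overlap of libraries. The 95% interval of the interaction lay within −0.5 and 0.5 for 2535 genes (20.2%), including 166 of 6056 WT DEGs. The libraries of CS and SD did not overlap in WT mice for 589 genes higher (4.7%) and 1274 lower (10.2%) after SD, and in floxed mice for 1058 higher (8.45%) and 1103 lower (8.81%). They did so in both genotypes for 54 genes higher in both (0.431%), 76 lower in both (0.607%) and 71 in opposite directions (0.567%). The shares over all genes given here and above are those to set beside the counts of each list below. By limma, DEGs in both genotypes were Ccnd1, Trib2 and Cbln4, all higher after SD, and Met, which fell in WT and rose in floxed mice.

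Ccnd1 (cyclin D1, chr7:144929931-144939925), which drives the entry into the cell cycle, had the same response in both genotypes within a narrow interval. Its rescaled CPM was 19.7, 22.6 and 24.4 (lowest, median and highest) in WT CS and 30.9, 34.1 and 43.1 in WT SD, and 23.2, 22.9, 23.7 and 24.3 in floxed CS against 37.2, 39.5 and 35.2 in floxed SD libraries. No SD library of either genotype came down to the CS range. Ccnd1 rose by 0.64 in WT (limma adjusted p = 1.7e-05) and 0.65 in floxed mice (adjusted p = 0.022), with an interaction of 0.01 (95% interval −0.25 to 0.28). Trib2, a pseudokinase, rose by 0.31 and 0.76, and Cbln4, a secreted synaptic organizer, by 0.50 and 1.13. The interaction of Trib2 was 0.45 (limma adjusted p = 0.044) and held in 8 of the 20 fits with a library left out, and that of Cbln4 was 0.62 (adjusted p = 0.069).

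ER chaperones and genes of the unfolded protein response had nearly equal medians in both genotypes. Of 22 genes, 10 rose and 1 fell in WT mice, and the floxed libraries did not overlap for 10, all higher in SD. Over all genes, 27.2% rose and 21.2% fell in WT mice, and 8.45% did not overlap, higher in SD, in floxed mice. Medians were 0.275 in WT and 0.251 in floxed mice, beside 0.046 and −0.0043 over all genes, and 19 of the 22 floxed differences were above 0. The interval of the interaction lay within −0.5 and 0.5 for 12 of 22 genes, and the median interaction was −0.0047, −0.0023 after the GC correction, −0.267 on CPM as deposited and −0.0420 without WT CS 1, 2 and 3. Atf6, which encodes a stress sensor of the ER membrane, was the only member called by limma or edgeR (DESeq2 called 2), with differences of −0.38 in WT and 0.10 in floxed mice (interaction 0.48, limma adjusted p = 0.029, and 0.26 after the GC correction).

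Hspa5 (BiP, chr2:34771970-34777547), the main chaperone of the ER lumen, whose ERSE stands in the promoter printed above, measured 117, 137 and 172 (lowest, median and highest rescaled CPM) in WT CS and 178, 187 and 288 in WT SD libraries. In floxed mice the values were 138, 136, 151 and 160.0 in CS and 234, 219 and 205 in SD libraries. Neither genotype showed overlap. Hspa5 rose in WT mice by 0.56 (limma adjusted p = 0.00088), the floxed difference was 0.59 (adjusted p = 0.24), and the interaction was 0.03 (95% interval −0.38 to 0.43). Pdia6, a protein disulphide isomerase, had 0.44 and 0.33 with no overlap in either genotype, and its interaction was −0.11 (−0.39 to 0.17). Calr, the lectin chaperone calreticulin, had 0.38 and 0.34, and Manf, a secreted ER stress protein, 0.51 and 0.39. For all 4 of these genes the interval of the interaction lay within −0.5 and 0.5.

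Feedback inhibitors of MAP kinase signalling also had positive medians in both genotypes, 0.354 in WT and 0.32 in floxed mice. Of 13 genes, 7 rose in WT mice, the floxed libraries did not overlap for 7, all higher, and 3 did not overlap in both, namely Dusp4, Spry4 and Spred3. Dusp4, a nuclear phosphatase of ERK, measured 2.72, 3.77 and 5.26 in WT CS, 7.06, 8.21 and 10.9 in WT SD, 3.29, 4.93, 3.73 and 3.58 in floxed CS and 8.71, 6.57 and 5.38 in floxed SD libraries. Its differences were 1.04 and 0.74. Spry4, a Sprouty inhibitor of receptor tyrosine kinase signalling, had 0.80 and 0.64, and Spred3 0.35 and 0.34. Spred1 was the only member called, at −0.20 in WT and 0.51 in floxed mice (interaction 0.71, limma adjusted p = 0.023, and 0.17 after the GC correction). The median interaction of the group was −0.137, and 0.0453 after the GC correction.

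Targets of the glucocorticoid receptor had medians above 0 in both genotypes, 0.666 in WT and 0.351 in floxed mice. Of 16 genes, 11 rose in WT mice. All 16 floxed differences were above 0 and the libraries did not overlap for 7, but none was a floxed DEG by limma or edgeR (1 by DESeq2, 5 at an unadjusted limma p of at most 0.05). Tsc22d3 (Gilz, chrX:140539528-140600659), a mediator of glucocorticoid effects, measured 38.7, 42.1 and 48.2 in WT CS and 48.6, 58.6 and 70.2 in WT SD, and 47.8, 44.6, 38.1 and 36.0 against 69.6, 66.4 and 61.9 in the floxed libraries. Its differences were 0.48 and 0.66 (interaction 0.18, 95% interval −0.14 to 0.51). Fkbp5, a co-chaperone of the receptor, had 0.72 and 0.37, with an interaction of −0.35 (limma adjusted p = 0.11). Calls were made for Klf9 (0.43, adjusted p = 0.045), Plin4 and Ddit4. Plin4, a lipid droplet coat protein, rose in WT mice by 2.00, from 0.8, 1.19 and 1.43 to 4.31, 5.48 and 9.91, while its floxed values were 0.718, 1.59, 0.826 and 1.84 in CS and 1.78, 4.32 and 1.80 in SD. That gave an interaction of −1.20 (limma adjusted p = 0.036, edgeR 0.053) and −0.88 after the GC correction. Ddit4, an inhibitor of mTOR complex 1, had 1.65 in WT and 0.27 in floxed mice, where the CS libraries (12 to 15.2) already lay above all WT CS libraries (2.45 to 6.38). The median interaction of the group was −0.294, and −0.0458 after the GC correction, which gave medians of 0.425 in WT and 0.397 in floxed mice. After that correction 0 genes of the group were called.

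**Figure D3:**
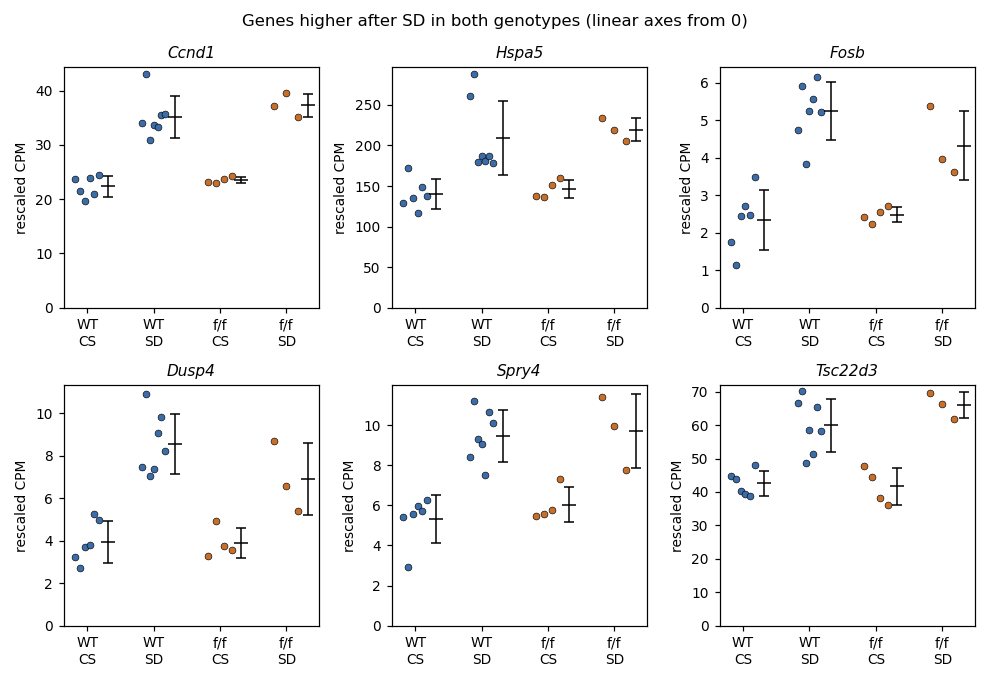
Rescaled CPM of Ccnd1, Hspa5, Fosb, Dusp4, Spry4 and Tsc22d3 on linear axes from 0, with 1 point per library (WT CS n = 6, WT SD n = 7, floxed CS n = 4, floxed SD n = 3) and the mean ± SD of each group. In all 6 genes every SD library lies above every CS library of its genotype, as for Ccnd1 with 30.9 to 43.1 against 19.7 to 24.4 in WT mice.

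Among immediate early transcription factors, none of the 6 AP-1 genes tested was called (by limma, edgeR or DESeq2, with 1 at an unadjusted limma p of at most 0.05), and 5 rose in WT mice. Medians were 0.809 in WT and 0.461 in floxed mice, with all 6 floxed differences above 0 and 4 without overlap. The median interaction of −0.310 became −0.0320 after the GC correction and −0.539 on CPM as deposited. For none of the 6 did the interval of the interaction lie within −0.5 and 0.5, so likeness was not resolved either. Fosb, the AP-1 partner whose splice form accumulates with repeated activity, measured 1.15, 2.46 and 3.50 in WT CS, 3.83, 5.25 and 6.16 in WT SD, 2.43, 2.24, 2.55 and 2.71 in floxed CS and 5.37, 3.96 and 3.63 in floxed SD libraries. Its differences were 1.06 and 0.68 (interaction −0.38, 95% interval −0.94 to 0.18). Fos had 0.49 in WT (limma adjusted p = 0.20) and 1.29 in floxed mice, and the interval of its interaction ran from −0.36 to 1.95.

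The Egr, Nr4a and other activity-induced transcription factors held 4 calls more positive and 1 more negative among 14 genes. Over all genes these shares were 9.2% and 5.86%. The WT median was 0.311 and the floxed median 0.522, with 7 of 14 floxed genes without overlap, all higher (8.45% over all genes). The median interaction of 0.143 was 0.261 after the GC correction, 0.387 without WT CS 1, 2 and 3, and −0.115 on CPM as deposited, so its sign depends on the scaling.

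Egr2 (chr10:67535475-67542188), a zinc finger factor induced within an hour of neuronal activity, had a large positive interaction at a low level. It was between 0.767 and 4.16 (median 2.18) in WT CS and between 1.56 and 3.13 (median 2.10) in WT SD libraries, and 0.594, 1.27, 0.376 and 0.205 in floxed CS against 4.90, 2.71 and 2.17 in floxed SD libraries. WT groups overlapped entirely, floxed groups did not, and floxed CS libraries lay towards or below the lower end of the WT CS range. The lowest value, 0.205 in floxed CS 4, is near the floor, as 3 reads are up to 0.158 CPM in floxed CS libraries. The WT difference was 0.03, the floxed difference 1.78 (limma adjusted p = 0.098) and the interaction 1.75 (95% interval 0.82 to 2.68, limma adjusted p = 0.025, edgeR 0.022), with 1.88 after the GC correction (limma adjusted p = 0.036) and 2.12 without WT CS 1, 2 and 3. The call was lost without floxed CS 4 (1.56, adjusted p = 0.067), floxed SD 1 (1.46, 0.077) or floxed SD 3 (1.97, 0.080), and in the fit of all 7 groups (1.75, adjusted p = 0.0541).

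Egr1 had the same pattern, at 45.7, 57.6 and 78.6 in WT CS, 46.2, 59.4 and 88.1 in WT SD, 39.1, 66.7, 48.2 and 51.3 in floxed CS and 93.6, 102 and 82.2 in floxed SD libraries. Its differences were 0.00 and 0.87 (interaction 0.86, 95% interval 0.32 to 1.41, limma adjusted p = 0.038), 1.28 after the GC correction (adjusted p = 0.020), and the call held in 9 of 20 fits with a library left out. Nr4a2, an orphan nuclear receptor, had −0.68 and 0.50 (interaction 1.18, adjusted p = 0.039), and Crem, a cAMP-responsive factor, −0.14 and 0.37 (0.51, adjusted p = 0.024). Npas4, which directs inhibitory synapse formation, went the other way. It was 4.2, 5.14 and 7.32 in WT CS, 7, 9.32 and 13.5 in WT SD, 8.49, 12.3, 8.54 and 11.7 in floxed CS and 12.5, 6.22 and 4.49 in floxed SD libraries, so that the floxed groups overlapped (0.68 and −0.49, interaction −1.17, limma adjusted p = 0.030). After the GC correction the Egr and Nr4a list kept 2 calls more positive, Egr1 and Egr2, and 0 more negative. Nr4a2, Crem and Npas4 were not among its calls then.

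Activity-induced effectors had floxed differences above 0 in all 19 genes, with a floxed median of 0.465 and a WT median of 0.113, or 0.417 and 0.338 after the GC correction. Floxed libraries did not overlap for 10, all higher in SD, beside 8.45% over all genes. Interactions called over all genes were 9.2% more positive and 5.86% more negative. Calls were 4 more positive (Homer1, Nrn1, Pcsk1 and Tiparp) and 1 more negative (Gadd45g), and the median interaction was 0.118, 0.172 after the GC correction, with 1 call, and −0.128 on CPM as deposited. Homer1 (chr13:93299635-93405129), a postsynaptic scaffold with a short activity-induced form, measured 369, 496 and 727 in WT CS, 320.4, 455 and 484 in WT SD, 362, 327, 299 and 293 in floxed CS and 728, 592 and 484 in floxed SD libraries. WT groups overlapped and floxed groups did not. Its differences were −0.30 (limma adjusted p = 0.069) and 0.89, and the interaction was 1.19 (95% interval 0.70 to 1.68, limma adjusted p = 0.015) but 0.44 after the GC correction (adjusted p = 0.17). The gene-level counts do not separate its long and short forms. Arc, which traffics AMPA receptors, had 1.18 and 1.27, but the interval of its interaction, from −0.86 to 1.04, was too wide to show likeness. Nrn1, a GPI-anchored neurite growth factor whose exons share 501 bases with Fars2 on the other strand, had −0.53 and 0.47 (interaction 0.99, adjusted p = 0.018, and 0.78 after the GC correction, adjusted p = 0.016).

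Met (chr6:17463800-17573980), the receptor of hepatocyte growth factor and a regulator of cortical synapse maturation, was by limma the only DEG of both genotypes with opposite signs (DESeq2 gave 3 such genes). It measured 7.30, 9.11 and 10.6 in WT CS and 5.86, 6.09 and 8.44 in WT SD, and 9.29, 6.88, 8.04 and 6.66 in floxed CS against 13.2, 14.4 and 15.0 in floxed SD libraries. The floxed groups stood well apart and the WT groups overlapped. Met fell by 0.43 in WT mice (limma adjusted p = 0.0023) and rose by 0.85 in floxed mice (adjusted p = 0.028), with an interaction of 1.28 (95% interval 0.92 to 1.65, limma adjusted p = 0.0024). The interaction was called in all 20 fits with a library left out, between 1.22 and 1.37, and after the GC correction (0.96, adjusted p = 0.0081). The place as a DEG of both genotypes was less steady. No gene had opposite DEGs after the GC correction, under quantile normalization, on CPM as deposited or in the fit of all 7 groups. The same held when floxed CS 2, 3 or 4 or floxed SD 1, 2 or 3 was left out.

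GABA-A receptor subunits and gephyrin, the fast inhibitory receptor and its anchor, went down in WT mice and had a median near 0 in floxed mice. Of 13 genes, 11 fell in WT mice and none was a floxed DEG by limma, edgeR or DESeq2 (0 at an unadjusted limma p of at most 0.05). Among them, 6 interactions were more positive (among them Gabra4, Gabrb1, Gabrb2 and Gphn) and 0 more negative by the same tools and at the unadjusted p. The WT median was −0.717 and the floxed median 0.0033, and the latter turned below 0 under quantile normalization, edgeR and DESeq2. After the GC correction the WT median was −0.243, the floxed median −0.0497 and the median interaction 0.0694 in place of 0.705, with 2 calls. Without WT CS 1, 2 and 3 the median interaction was 0.517. Gabrb2 (chr11:42419757-42629028) measured 525, 613 and 902 in WT CS and 332, 387 and 443 in WT SD, without overlap, and 478, 448, 486 and 429.5 in floxed CS against 488, 487 and 535 in floxed SD libraries. It fell by 0.74 in WT mice, the floxed difference was 0.13, and the interaction was 0.86 (95% interval 0.51 to 1.22, limma adjusted p = 0.015), or 0.54 after the GC correction (adjusted p = 0.013). Gabra4 and Gabrb1 share 28 exonic bases on opposite strands.

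Metabotropic glutamate receptors held 3 calls more positive among 7 genes, Grm3, Grm5 and Grm7, with medians of −0.695 in WT and −0.113 in floxed mice and a median interaction of 0.509, or 0.148 after the GC correction. That correction left 1 call. Grm3, a presynaptic and glial autoreceptor, was 556, 637 and 1032 in WT CS, 291, 335 and 389.5 in WT SD, 403, 356, 484 and 395 in floxed CS and 366, 368 and 443 in floxed SD libraries. The floxed CS level already lay below the WT CS level, and its differences were −1.01 and −0.06 (interaction 0.95, limma adjusted p = 0.018, 0.84 after the correction with adjusted p = 0.023). Cadherins and protocadherins, homophilic adhesion proteins, had 13 calls more positive and 2 more negative among 28 genes, with 17 lower in WT mice and a median interaction of 0.572, or 0.216 after the GC correction and 0.417 without WT CS 1, 2 and 3. The GC-corrected calls were 5 more positive and 0 more negative. Cdh12 (chr15:20449265-21589533), among the 10 largest positive interactions, measured 426, 606 and 865 in WT CS, 225, 253 and 313 in WT SD, 230.2, 228, 229 and 178 in floxed CS and 243, 207 and 274 in floxed SD libraries. Floxed libraries of both conditions thus lay in or below the WT SD range. Cdh12 fell by 1.21 in WT mice, the floxed difference was 0.16 and the interaction was 1.36 (limma adjusted p = 0.0067, called in all 20 fits with a library left out, and 0.69 after the GC correction with adjusted p = 0.020).

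Over all genes, calls were 9.2% more positive and 5.86% more negative, and several lists of this paragraph lay near these shares. Synaptic adhesion proteins of the neurexin and neuroligin class gave 7 calls more positive and 1 more negative of 18 (median interaction 0.469, 0.193 after the GC correction with no call). AMPA receptor subunits and their auxiliary proteins gave 3 and 3 of 20, NMDA and kainate receptor subunits 3 and 1 of 13, postsynaptic scaffolds 2 and 1 of 14, and presynaptic release genes 4 and 0 of 24. Potassium channels gave 7 and 2 of 73, sodium, calcium and HCN channels 5 and 4 of 30, receptors for monoamines, acetylcholine, histamine and orexin 6 and 1 of 34, phosphodiesterases and adenylyl cyclases 5 and 1 of 29, and axon guidance genes 8 and 5 of 68. Among the receptors, Hcrtr2, an orexin receptor of wake control, had −0.47 and 0.57 (interaction 1.05, limma adjusted p = 0.011). Chrm3, a muscarinic receptor named after its values were seen, was lower in both genotypes without overlap, at 497, 586 and 714 against 224, 280.5 and 386 in WT mice and 375, 414, 486 and 395 against 346, 332 and 362 in floxed mice. Its differences were −1.02 and −0.26 (interaction 0.76, limma adjusted p = 0.028).

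Clock genes were tested as activators and repressors of the loop. All 5 activators tested fell in WT mice, with a WT median of −0.508 against −0.0383 in floxed mice, and 2 of 5 were called, Clock and Rorb. Their median interaction was 0.368, and 0.226 with 1 call after the GC correction. Rorb, an orphan nuclear receptor that also marks layer 4 neurons, measured 219.8, 264 and 395 in WT CS, 123, 151 and 188 in WT SD, 233, 210.4, 189 and 195 in floxed CS and 245, 249.9 and 298 in floxed SD libraries, without overlap in either genotype and in opposite directions. Its differences were −0.89 and 0.35 (interaction 1.25, 95% interval 0.82 to 1.67, limma adjusted p = 0.0067), or 0.67 after the GC correction (adjusted p = 0.019). Clock had −0.51 and 0.18 (interaction 0.68, adjusted p = 0.027), or 0.07 after the correction. Of the 6 repressors 0 were called (also 0 by edgeR and DESeq2, with 1 at an unadjusted limma p of at most 0.05). Per1 had 0.61 in WT and 0.26 in floxed mice and Per2 0.57 and 0.20, with interactions of −0.35 and −0.37. The median interaction of the repressors turned from −0.286 to 0.0537 after the GC correction, and the difference between the lists was not tested.

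**Figure D4:**
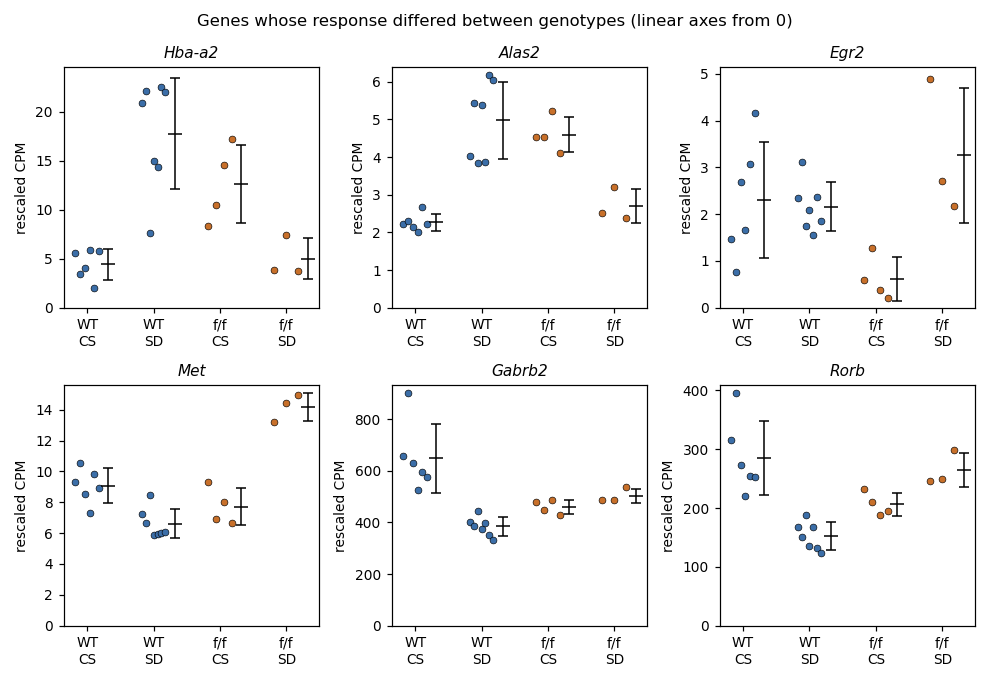
Rescaled CPM of Hba-a2, Alas2, Egr2, Met, Gabrb2 and Rorb on linear axes from 0, with 1 point per library (WT CS n = 6, WT SD n = 7, floxed CS n = 4, floxed SD n = 3) and the mean ± SD of each group. Hba-a2 and Alas2 are higher after SD in WT and lower in floxed mice, Met and Rorb the reverse, and Gabrb2 is lower after SD in WT mice (332 to 443 against 525 to 902).

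Haemoglobin transcripts turned in direction between the genotypes. Of 14 genes of haemoglobin and haem metabolism, 8 rose in WT mice, the floxed libraries did not overlap for 5, all lower, and 6 interactions were more negative (Hba-a1, Hba-a2, Hbb-bs, Hbb-bt, Alas2 and Blvrb). The median interaction was −0.378, −0.281 after the GC correction, with 5 calls, and −0.215 without WT CS 1, 2 and 3. Hba-a2 (chr11:32296489-32297298), which encodes alpha globin, measured 2.00, 4.82 and 5.89 in WT CS, 7.60, 20.9 and 22.5 in WT SD, 8.37, 10.5, 14.5 and 17.2 in floxed CS and 3.81, 7.38 and 3.78 in floxed SD libraries. No overlap was seen in either genotype. Its differences were 1.88 (limma adjusted p = 5.5e-05) and −1.27 (adjusted p = 0.30), and the interaction was −3.15 (95% interval −4.07 to −2.22, limma adjusted p = 0.0028), or −2.35 after the GC correction (adjusted p = 0.016) and −3.16 without WT CS 1, 2 and 3. The interactions of Hba-a1, Hbb-bt and Hbb-bs were −3.13, −2.62 and −2.50. Hba-a1 and Hba-a2, like Hbb-bs and Hbb-bt, are near-identical pairs, and unique-read counting leaves the split within each pair uncertain. Where a library was left out, Hba-a1 and Hbb-bt lost the call without floxed SD 3 (−2.93, adjusted p = 0.069, and −2.38, adjusted p = 0.053) and Hbb-bs without floxed SD 1 or SD 3 (−2.43, adjusted p = 0.0503, and −2.32, adjusted p = 0.0802).

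Alas2 (chrX:150547375-150570638), the erythroid form of the first enzyme of haem synthesis, had an interaction of the same sign. It measured 2.01, 2.22 and 2.67 in WT CS, 3.84, 5.39 and 6.17 in WT SD, 4.53, 4.53, 5.23 and 4.10 in floxed CS and 2.51, 3.20 and 2.38 in floxed SD libraries. Its differences were 0.97 and −0.68 (interaction −1.64, 95% interval −2.06 to −1.23, limma adjusted p = 0.00074), or −1.41 after the GC correction (adjusted p = 0.0033). Alas2 exons share 311 bases with Apex2 on the other strand, and strand use in counting was not stated. The other haem genes, among them Alas1, Fech and Hmox1, were not called. Globin and Alas2 transcripts are abundant in red blood cells, and their level in a piece of tissue can move with the blood left in it. Bulk tissue does not show which cells they came from. The mean of the list over WT CS libraries ran from −0.358 to 0.226 around its genotype's CS mean, over WT SD from 0.214 to 0.871, over floxed CS from −0.0853 to 0.0761 and over floxed SD from −0.498 to −0.166 (log2), and the part of residual blood was not tested.

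Genes of meningeal fibroblasts and the arachnoid barrier rose in WT mice, 14 of 18 with none lower, at a WT median of 1.45 against 0.118 in floxed mice. Interactions were more negative for 5 (Aldh1a2, Col1a2, Ptgds, Slc22a6 and Slc6a13) and more positive for none, with a median of −1.16, −0.974 after the GC correction and −1.63 without WT CS 1, 2 and 3. After the GC correction 1 interaction of the list was called. Slc6a13 (chr6:121300227-121337733), a GABA transporter of the meninges, measured 1.90, 4.52 and 9.26 in WT CS, 10.2, 11.5 and 20.7 in WT SD, 7.60, 9.74, 9.07 and 8.45 in floxed CS and 7.41, 6.11 and 6.59 in floxed SD libraries. Its WT libraries did not overlap, while the floxed libraries of both conditions lay between or within the WT ranges (interaction −1.80, limma adjusted p = 0.018, and −1.5 after the correction with adjusted p = 0.065). The mean of the list over single WT CS libraries ran from −1.19 (CS 5) to 1.05 (CS 1) around the WT CS mean, over WT SD from 1.14 to 1.64, over floxed CS from −0.0583 to 0.106 and over floxed SD from −0.0543 to 0.328 (log2). The amount of meninges in the samples was not measured, and its part in the result was not tested. Pericyte and smooth muscle markers had 1 call of 10 (Tagln, −1.16), endothelial markers 1 of 12 (Vwf, −1.37), astrocyte markers 1 of 15 (Gfap, −1.04), and microglia, macrophage and complement genes 2 of 15 (P2ry12, 1.13, and Trem2, −0.74).

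Oligodendrocyte and myelin genes were higher after SD in floxed mice for 9 genes of 19 by libraries that did not overlap, and lower for none. Over all genes these shares were 8.45% and 8.81%. The floxed median was 0.261 with 15 of 19 differences above 0, 7 of them at an unadjusted limma p of at most 0.05, and none was a DEG by limma or edgeR (2 by DESeq2). In WT mice 7 rose and 6 fell, with a median of 0.160. Cldn11, the tight junction protein of myelin, responded alike at 33.9, 53.5 and 59.0 against 58.5, 81.6 and 92.0 in WT mice and 74.1, 62.3, 61.5 and 68.0 against 102, 98.1 and 109 in floxed mice, with differences of 0.61 and 0.63 (interaction 0.03, 95% interval −0.40 to 0.45). Mog, a myelin surface protein, did not, with 27.9 and 27.5 as WT medians and 35.8, 27.9, 32.7 and 34.6 against 44.5, 48.3 and 50.9 in the floxed libraries (0.05 and 0.55, interaction 0.50, limma adjusted p = 0.043, called in 8 of 20 fits with a library left out). Ugt8a (0.90) and Mal (0.98) were also called. The median interaction was 0.128, 0.145 after the GC correction, with 0 calls, and −0.132 on CPM as deposited. Excitatory neuron and layer markers had 3 calls more positive of 16, and inhibitory neuron markers 1 of 19.

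Cytosolic ribosomal protein and respiratory chain genes had medians above 0 in WT mice and near 0 in floxed mice. Of 80 cytosolic ribosomal protein genes 54 rose and 1 fell in WT mice, with medians of 0.589 and 0.0353, and 7 interactions were more negative (Fau, Rpl3, Rpl37, Rpl41, Rpl7a, Rps16 and Rps28). Over all genes 5.86% were more negative. Rps16 measured 6.08, 13.2 and 17.7 in WT CS, 20.2, 32.9 and 40.8 in WT SD, 32.1, 36.6, 34.3 and 40.9 in floxed CS and 29.4, 31.3 and 32.8 in floxed SD libraries. WT CS libraries alone stood low (interaction −1.41, limma adjusted p = 0.022, and −1.23 after the correction with adjusted p = 0.041). Of 79 nuclear-encoded respiratory chain genes 52 rose and 3 fell in WT mice (median 0.514), while the floxed median was 0.0031 and turned below 0 under edgeR. Calls were 1 more positive (Cox7b2) and 3 more negative (Atp5l, Cox5b and Ndufb10). The median interaction was −0.569 for the ribosomal and −0.460 for the respiratory list, −0.379 and −0.226 after the GC correction, and −0.302 and −0.258 without WT CS 1, 2 and 3. After the GC correction 1 ribosomal and 0 respiratory interactions were called. WT libraries did not overlap, higher in SD, for 2 ribosomal and 0 respiratory genes, beside 4.7% over all genes. In floxed mice this held for 9 and 7, beside 8.45%. The respiratory mean of WT CS 5 and 6 (0.328 and 0.283) lay above that of WT SD 3 and 6 (0.0934 and 0.200).

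The calls of further lists stand beside 9.2% more positive and 5.86% more negative over all genes. Histone genes had 2 more negative of 15 (median interaction −0.701, −0.546 after the GC correction), mitochondrial ribosomal proteins 1 more positive and 4 more negative of 74, proteasome subunits 1 and 2 of 45, glycolysis and glucose handling 1 and 1 of 26, and the TCA cycle 1 and 0 of 25. Translation factors had 4 and 3 of 52, splicing factors 5 and 2 of 58, chromatin enzymes 8 and 3 of 57, DNA methylation genes 1 and 1 of 13, collagens 4 and 4 of 35 and antioxidant enzymes 0 and 1 of 22. Cytosolic heat shock proteins had 2 and 2 of 20, the negative pair being Hspa1a and Hspa1b, near-identical copies at −1.24 and −1.86. Cholesterol and fatty acid synthesis had 2 and 3 of 29, and its floxed libraries did not overlap for 8, all lower. Sleep kinases and adenosine handling had 0 and 1 of 16, MEF2 factors with class IIa deacetylases 1 and 1 of 7, and 0 were called among 14 cortical neuropeptides and 7 clock output factors (1 at an unadjusted limma p of at most 0.05 in each, 0 by edgeR and DESeq2). Cold-inducible RNA-binding proteins (2 tested) and nuclear long noncoding RNAs (1 of 11 tested) held 0 calls by the same tools, with 1 and 0 genes at the unadjusted p. After the GC correction the median interaction turned in sign for AMPA receptor genes (−0.127 to 0.0899), axon guidance genes (−0.299 to 0.0223), collagens (−0.309 to 0.0429), splicing factors (0.190 to −0.0623), microglial genes (−0.198 to 0.0461) and clock output factors (−0.0624 to 0.0214).

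**Figure D5:**
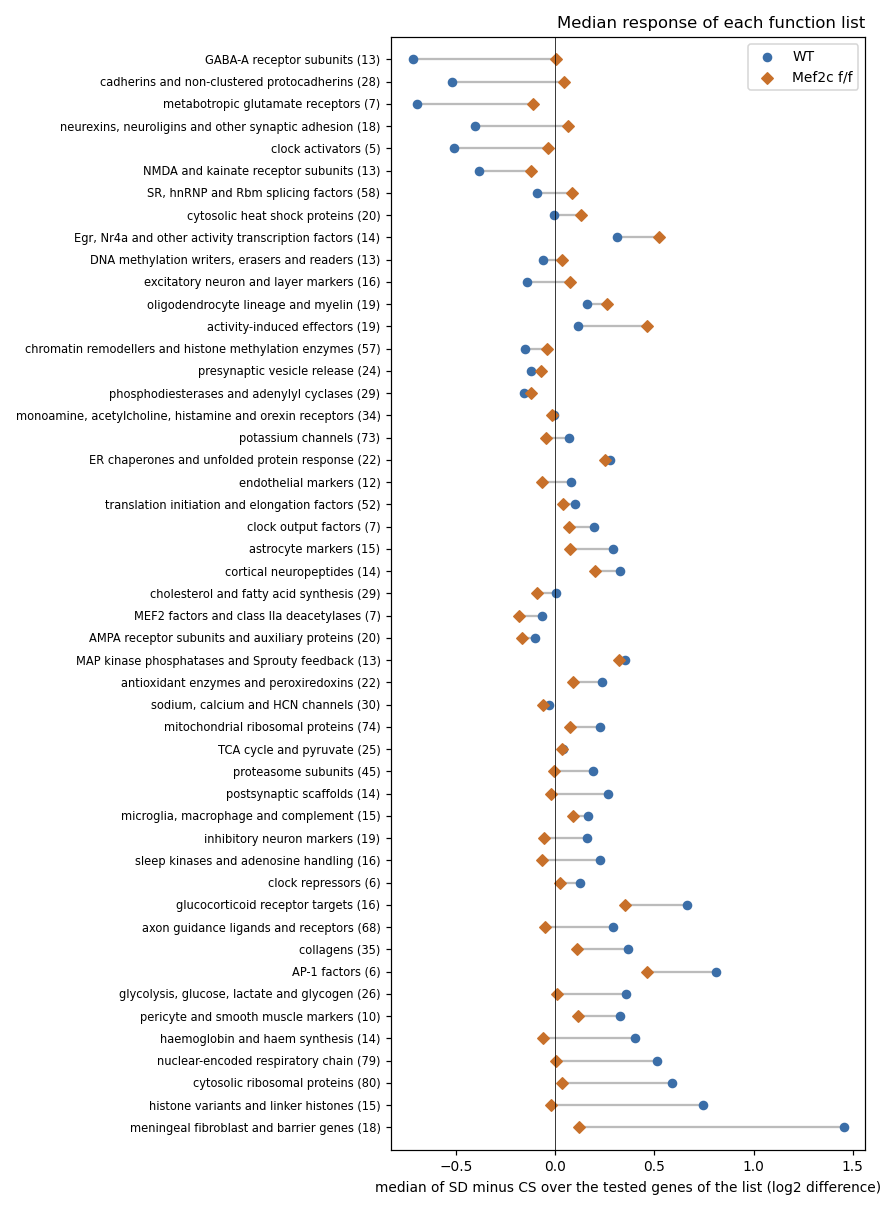
Median log2 difference (SD minus CS, x axis) over the tested genes of each of the 49 lists with at least 5 genes tested, whose number stands in parentheses, for WT mice (circles) and Mef2c f/f mice (diamonds), ordered from top to bottom by the median interaction. GABA-A receptor subunits (−0.717 and 0.0033) stand at the top and meningeal genes (1.45 and 0.118) at the bottom, while both markers of the ER chaperones lie together at 0.275 and 0.251.

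The genes with the largest interactions by size were a mixture of low-level and variable transcripts. The 10 most positive were Cox7b2 (1.93), Egr2 (1.75), Rnf17 (1.5), Brinp3 (1.49), Vmn2r84 (1.45), Rad51ap2 (1.44), Cdh12 (1.36), Met (1.28), Zfp458 (1.28) and Fap (1.27). The 10 most negative were the 4 globin genes, Hist2h2ac (−3.11), Pcsk1n (−3.02), Hist4h4 (−2.96), Scand1 (−2.80), Hist1h2ak (−2.31) and Shisa8 (−2.18). Pcsk1n, the precursor of a prohormone convertase inhibitor, ranged from 4.18 to 86.1 in WT CS and from 75.1 to 288 in WT SD libraries, and was 22.3, 70.7, 61.2 and 93.3 in floxed CS and 50.1, 80.2 and 35.7 in floxed SD libraries. Its spread within WT CS was as wide as a difference between groups. Hist2h2ac and Hist4h4 were called in 6, Hist1h2ak in 9, Cox7b2 in 10 and Scand1 in 16 of the 20 fits with a library left out, and edgeR did not call Pcsk1n, Hist2h2ac, Hist4h4 or Hist1h2ak (adjusted p = 0.063, 0.13, 0.14 and 0.10). Brinp3, which restrains cell proliferation, held in 19 fits and after the GC correction (1.24, limma adjusted p = 0.0081). Of 4 further genes set by the naming rule, Fbxo8 was called (0.82, limma adjusted p = 0.023), and Lrp3 (−0.68, adjusted p = 0.11), Cep295 (0.49, adjusted p = 0.064) and Myo3a (−0.06) were not.

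Outside the lists, Lyz2, the lysozyme of macrophages, was called in every fit with a library left out and is named after its values were seen. It measured 2.23, 3.07 and 3.85 in WT CS, 4.85, 6.12 and 11.5 in WT SD, 7.03, 6.66, 4.81 and 7.58 in floxed CS and 4.19, 3.66 and 3.11 in floxed SD libraries, without overlap in either genotype and in opposite directions (1.02 and −0.75, interaction −1.77, limma adjusted p = 0.0067). Vim, an intermediate filament of astrocytes, fibroblasts and vessels, had 1.02 and −0.04 (interaction −1.06, limma adjusted p = 0.0058). Nptx1, a neuronal pentraxin that clusters AMPA receptors, also named after its values were seen, responded alike at 152, 165 and 175 against 188, 221 and 258 in WT mice and 149, 172, 172 and 183 against 218, 237 and 228 in floxed mice (0.41 and 0.43, interaction 0.02, 95% interval −0.24 to 0.29).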

How the data were processed

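From total RNA of frontal cortex the authors made libraries with a stranded mRNA kit, trimmed the reads (Trimmomatic), mapped them to mm10 (STAR) and counted uniquely mapped reads per gene (HTSeq), and the deposited table holds CPM computed with edgeR, without pooling of replicates. The annotation release and the use of strand in counting were not given in the sources used here. Table columns were assigned to samples by the titles in the labels.

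Each library's CPM was rescaled with a median-of-ratios factor, taken over the 11570 genes that reached 1 CPM in each of the 33 libraries (rescaled CPM). log2(rescaled CPM + 0.5) was fitted with limma 3.58.1 (R 4.3.3, 4 groups in 1 fit, trended prior, two-sided tests, Benjamini-Hochberg adjustment over 12519 genes). Fold changes on this scale understate the change of low genes. For DEGs the adjusted p had to be 0.05 or less and the log2 fold change 0.3 or more in size, for interactions the adjusted p alone counted. All 711645 values of the table (100%) were within 0.01 of whole reads, and these reads were tested with edgeR 4.0.16 and DESeq2 1.42.0 as alternatives. GC content and length were removed per library with natural splines. Counting error is the limit that depth sets on low genes, such as those near 3 reads.

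Genes named were the 10 largest called interactions in each direction, DEGs in both genotypes, members of 51 function lists, Mef2c and 7 genes of the series (Plin4, Lrp3, Cep295, Myo3a, Fbxo8, Ccnd1 and Trib2). Members and lists were chosen with earlier results of these data known. Of 1312 such genes, 138 share exonic bases with another gene, 5 on the same strand. Gene positions, transcript lengths and GC content are GENCODE's on GRCm38, matched by symbol or, failing that, by synonym. Exon overlaps are GENCODE's too. Promoter sequences are RefSeq's on GRCm38.p6, matched by symbol. Some members of the lists are counted but not reported here by name. Scripts were tested on simulated data.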

Additional observations from a re-analysis of the deposited data

Results flagged for a closer look

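The interaction itself was a difference between the genotypes in the same contrast, with 1885 genes called by limma. The flagged genes named above with a more positive response in floxed mice were Cox7b2 (1.93), Egr2 (1.75), Rnf17 (1.5), Brinp3 (1.49), Vmn2r84 (1.45), Rad51ap2 (1.44), Cdh12 (1.36), Met (1.28), Zfp458 (1.28), Fap (1.27), Mef2c (0.93), Fbxo8 (0.82) and Trib2 (0.45). Those with a more negative response were Hba-a2 (−3.15), Hba-a1 (−3.13), Hist2h2ac (−3.11), Pcsk1n (−3.02), Hist4h4 (−2.96), Scand1 (−2.80), Hbb-bt (−2.62), Hbb-bs (−2.50), Hist1h2ak (−2.31), Shisa8 (−2.18) and Plin4 (−1.20).

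In 99 groups of 4 to 7 libraries, 1 library stood far from the others in 18 cases by Dixon's criterion at a level of 1 in 20. Many of these genes were picked for large interactions in the same libraries, and some libraries recur. That level is therefore no chance rate for the count. WT CS 2 stood apart for Cox7b2 (18.5 rescaled CPM), Brinp3 (851), Vmn2r84 (21.1), Rad51ap2 (16.2), Zfp458 (63.1) and Fbxo8 (66.2), and in its scaling factor (0.7165). WT CS 5 did so for Hist2h2ac (13.2), Pcsk1n (86.1), Hist4h4 (16.2), Scand1 (3.06) and Hist1h2ak (3.26). WT SD 2 did so for Scand1 (18.1), Ccnd1 (43.1) and Cbln4 (14.3), WT SD 9 for Shisa8 (7.01), floxed CS 3 for Shisa8 (2.90) and floxed CS 4 for Cdh12 (178). WT CS 2 is thus high for 6 of the genes whose interaction was positive, and WT CS 5 for 5 genes whose interaction was negative, and what set these libraries apart was not tested.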

How the results depend on the processing

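The interaction count of 1885 (1152 more positive, 733 more negative), the 6056 WT DEGs, the 4 floxed DEGs and the 3 DEGs of the same direction in both genotypes moved as follows, and the causes were not tested. CPM as deposited gave 3323 interactions (480 and 2843), 1 floxed DEG and 0 in both, with the median interaction at −0.307 in place of −0.060 and 14.4% in place of 61.1% of calls positive. WT DEGs were then 6143 higher and 753 lower, in place of 3400 and 2656. The positive share was 68.9% under quantile normalization, which gave 437 more negative, 2 floxed DEGs and 1 in both, 72.9% with a minimum of 5 CPM in each library (454 more negative) and 48.1% with weights per group. Without a filter on low values 1142 were called (720 and 422). On recovered reads edgeR gave 1789 (1158 and 631) and DESeq2 2874 (1781 more positive), 49 floxed DEGs and 13 in both. Array quality weights gave 7119 (3274 and 3845), 1563 and 331. A fit of all 7 groups gave 2887 (1348 more negative), 0 and 0. The GC and length correction gave 198 (105 and 93), 3186 WT DEGs, 11 and 7, and the floxed libraries alone with it 119 floxed DEGs. Chosen after seeing the data, weights per group gave 4501 (2167 and 2334), 324 and 66, with the GC correction 1136 (469 and 667), 2914 WT DEGs, 495 and 110, and leaving out WT CS 1, 2 and 3 gave 504 (309 and 195), 2684 WT DEGs and 9 floxed DEGs.

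With 1 library left out, interactions ranged from 11 to 3180 (5 to 1693 more positive, 6 to 1487 more negative), WT DEGs from 4648 to 6519, floxed DEGs from 0 to 12 and DEGs of the same direction in both from 0 to 5. The labels do not say whether replicate numbers pair the samples. Correlations of same-numbered deviations ran from −0.317 (WT 2) to 0.551 (WT 1). WT 1 and 3 and floxed 2 and 3 were closest to their own number, while WT 2, 4 and 6 and floxed 1 were not. With the replicate block 0 interactions were called (0 and 0), 3330 at an unadjusted limma p of at most 0.05, with 0 floxed DEGs and 0 in both. Medians of lists moved by less than the replicate spread in 759 comparisons with an alternative and by more in 141. Depth limits floxed CS most, where 3 reads are up to 0.158 CPM.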
